A study of Mus musculus with 12 samples.

Results

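The enzymes that make prostaglandins and leukotrienes were followed here as a group of 10 genes, chosen by name: Pla2g4a, Ptgs1, Ptgs2, Ptges, Ptges2, Hpgds, Alox5, Alox5ap, Lta4h and Ltc4s. All 10 were among the 16570 genes of the deposited table, and all 10 passed the filter on low counts. Their RNA was measured by sequencing in macrophages grown from the bone marrow of C57BL/6J mice aged 6 to 8 weeks. The 4 groups were RANKL with RHC80267, RANKL with BMS309403, RANKL without inhibitor, and M-CSF without RANKL, and they are called RHC80267, BMS309403, RANKL and M-CSF below. Every group, the M-CSF group included, was kept in M-CSF at 50 ng/mL. RANKL was given at 100 ng/mL and each inhibitor at 1 µM, and the treatments lasted 2 days. M-CSF keeps macrophages alive, RANKL is the cytokine that turns them into osteoclasts, BMS309403 inhibits the lipid carrier FABP4, and RHC80267 inhibits diacylglycerol lipase. Each group had 3 libraries. No vehicle is named for the inhibitors, and whether libraries of a group came from different animals or cultures, or from pooled animals, is not given in the sources used here, so a p-value speaks only for the spread between these libraries, which may be technical.

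Prostaglandins and leukotrienes are signalling lipids made from arachidonic acid, which cytosolic phospholipase A2 frees from membranes. The cyclooxygenases turn it into prostaglandin H2, from which the synthases PTGES and PTGES2 make prostaglandin E2 and HPGDS makes prostaglandin D2. In the other branch 5-lipoxygenase, helped by its activating protein, makes leukotriene A4, from which LTA4H makes leukotriene B4 and LTC4S makes leukotriene C4. In bone, prostaglandin E2 is known mainly as a signal that makes osteoblasts and stromal cells produce RANKL, and macrophages make both lipid families.

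Total expected counts per library were 17760844 to 18344989. Macrophage markers were present in every group: 10 such genes summed to 20570 to 21610 CPM (counts scaled to library size) with RHC80267, 28180 to 29770 with BMS309403, 25360 to 27030 with RANKL and 32370 to 32820 with M-CSF. The summed CPM of 10 osteoclast markers was 16520 to 18660 with RHC80267, 6899 to 7779 with BMS309403, 8435 to 10470 with RANKL and 174.5 to 200.1 with M-CSF. The cultures with RANKL therefore carry the label macrophage but also express the osteoclast genes.

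Levels of different genes were set side by side on the deposited FPKM scale (fragments scaled to gene length and library size), which takes gene length into account. Alox5ap, which encodes the 5-lipoxygenase activating protein, was the highest of the 10 in every library, with a mean of 340.4 FPKM with RHC80267, 434.5 with BMS309403, 405 with RANKL and 596.8 with M-CSF. Between 98.2% and 99.0% of all genes had a lower mean FPKM than Alox5ap, depending on the group. Hpgds and Lta4h came next in every group. Hpgds averaged 48.2 FPKM with RHC80267, 76.9 with BMS309403, 70.9 with RANKL and 100.2 with M-CSF, and Lta4h averaged 49.4 with RHC80267, 54.6 with BMS309403, 54.8 with RANKL and 48.6 with M-CSF. Both prostaglandin E synthases among the 10 were far lower: the FPKM of Hpgds was 3.30 ± 0.0573 times that of Ptges2 with RHC80267, 6.94 ± 0.588 times with BMS309403, 5.62 ± 0.926 times with RANKL and 15.6 ± 0.684 times with M-CSF (SD, n = 3). Ptges3, a prostaglandin E synthase outside the 10, averaged 66.7 FPKM with RHC80267, 56.6 with BMS309403, 57.0 with RANKL and 53.8 with M-CSF. Ptgs2, the inducible cyclooxygenase, differed most between groups, with 0.1 FPKM with RHC80267, 0.193 with BMS309403, 0.11 with RANKL and 27.7 with M-CSF.

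**Figure D1:**
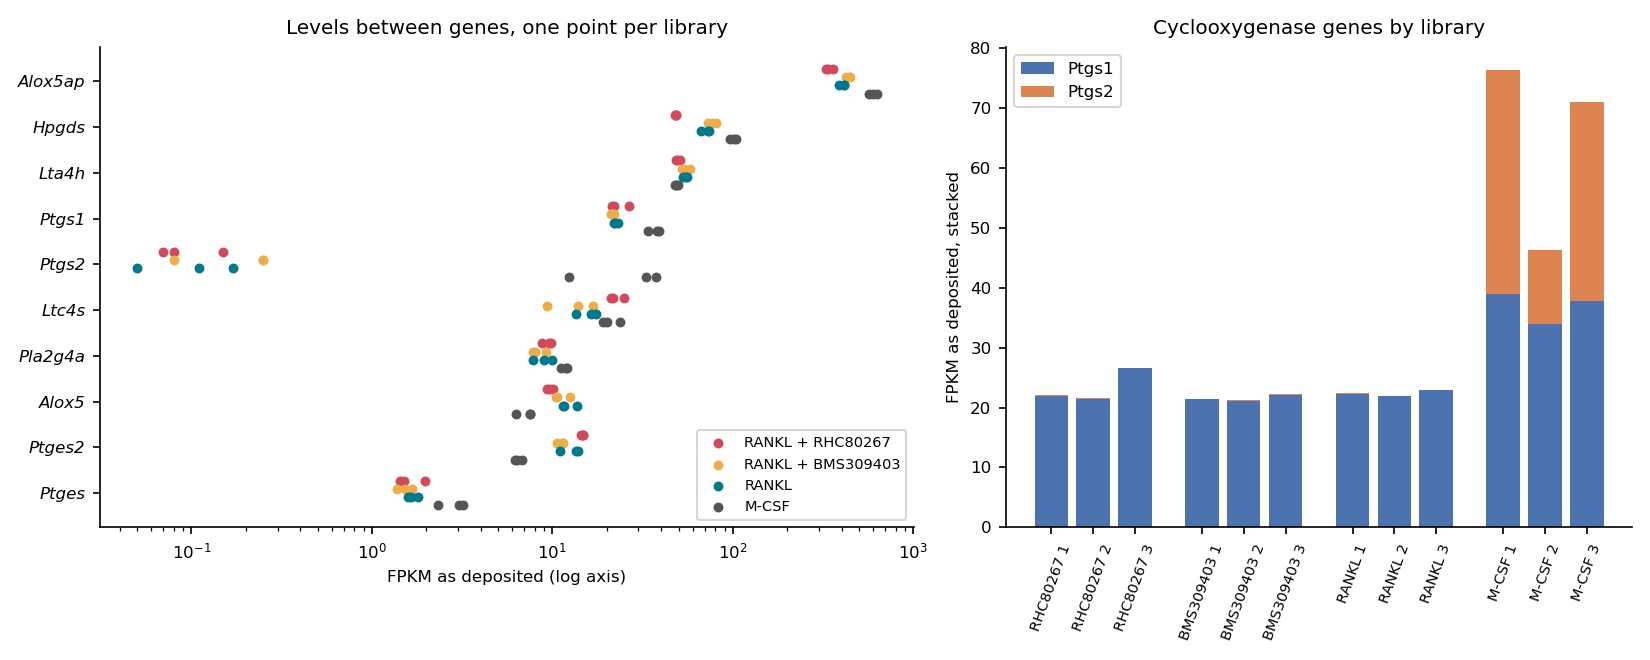
Left, the deposited FPKM (log axis) of each of the 10 enzyme genes, 1 point per library, coloured by group; Alox5ap is the highest gene in all libraries and Ptgs2 is the gene whose groups lie farthest apart. Right, the FPKM of Ptgs1 and Ptgs2 stacked for each library (RHC80267, BMS309403, RANKL, M-CSF, 3 each); Ptgs2 makes a visible part of the bar only in the M-CSF libraries, where Ptgs1 is 51.0% to 73.3% of the sum.

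RANKL was compared with M-CSF to see which of these enzymes the cytokine changes. Ptgs2 nearly vanished, its constitutive relative Ptgs1 fell by 0.79 on the log2 scale, and the genes of prostaglandin E2 and leukotriene synthesis moved in both directions. With RANKL, 3 of the 10 enzymes rose (Ptges2, Alox5 and Lta4h) and 7 fell (Ptgs2, Ptges, Ptgs1, Alox5ap, Hpgds, Ltc4s and Pla2g4a) at an adjusted p below 0.05 (edgeR quasi-likelihood test, Benjamini-Hochberg over all 12168 genes tested). Over all genes tested, 31.4% were called higher and 29.8% lower in this comparison, so most genes moved and a call by itself does not mark these 10 out. Their median log2 fold change was −0.50, against 0.003 over all genes. In bulk RNA, fewer cells of a type and less RNA per cell cannot be told apart.

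Ptgs2 (gene 19225, chromosome 1, 150100031 to 150108234, plus strand) encodes cyclooxygenase 2, the enzyme that inflammatory signals switch on. It had 0.71, 0.442 and 0.224 CPM in the 3 RANKL libraries, against 157, 52.2 and 140 CPM in the 3 M-CSF libraries, which stand on 13, 8 and 4 expected counts with RANKL and 2798, 933 and 2500 with M-CSF. The lowest M-CSF library lies far above the highest RANKL library. The log2 fold change was −7.96 ± 0.48 (SE), 249-fold lower with RANKL (adjusted p = 3.11e-12), and it lay between −8.42 and −7.64 when each library was left out in turn. The M-CSF libraries themselves differed: replicate 2 had 35.1% of the mean CPM of replicates 1 and 3. That library also had the lowest M-CSF value for 11 of 14 genes of an inflammatory list that holds Il1b, Tnf and Cxcl2 (78.6%), against 31.2% of all genes tested, and for 7 of the 10 enzymes; what sets it apart was not tested. All 14 genes of that list fell with RANKL, with a median log2 fold change of −4.02.

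Ptgs1 (gene 19224, chromosome 2, 36216742 to 36258593, plus strand) encodes cyclooxygenase 1, which most cells express without a stimulus. It had 67.7, 69.2 and 70.6 CPM with RANKL, against 128, 110 and 122 CPM with M-CSF, and the groups did not overlap. The log2 fold change was −0.79 ± 0.06 (adjusted p = 8.97e-11). The FPKM of Ptgs1 was 99.2%, 99.5% and 99.8% of the summed FPKM of both cyclooxygenases with RANKL, against 51.0%, 73.3% and 53.3% with M-CSF. The summed FPKM itself was 22.5 ± 0.509 with RANKL and 64.6 ± 16.1 with M-CSF (SD, n = 3 each). The cyclooxygenase RNA left with RANKL was thus almost all Ptgs1.

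A start window of each cyclooxygenase gene is shown because Ptgs2 had the largest change of the 10 genes and Ptgs1 makes the same product. Each run is the RefSeq sequence (GRCm38.p6, plus strand) of 250 bases before and 30 bases after a RefSeq start, chr1:150099781-150100060 for Ptgs2 and chr2:36230176-36230455 for Ptgs1. The Ptgs2 window sits at the first base of the gene as positioned above, while the Ptgs1 window lies inside that gene's printed span, downstream of its first base, so it shows an internal start and not the upstream end of the gene.
Ptgs2: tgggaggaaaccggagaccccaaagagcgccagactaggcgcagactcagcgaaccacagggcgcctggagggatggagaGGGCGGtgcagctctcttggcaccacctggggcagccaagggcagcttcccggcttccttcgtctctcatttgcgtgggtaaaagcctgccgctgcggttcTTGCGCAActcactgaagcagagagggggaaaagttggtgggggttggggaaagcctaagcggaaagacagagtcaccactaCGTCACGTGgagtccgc
Ptgs1: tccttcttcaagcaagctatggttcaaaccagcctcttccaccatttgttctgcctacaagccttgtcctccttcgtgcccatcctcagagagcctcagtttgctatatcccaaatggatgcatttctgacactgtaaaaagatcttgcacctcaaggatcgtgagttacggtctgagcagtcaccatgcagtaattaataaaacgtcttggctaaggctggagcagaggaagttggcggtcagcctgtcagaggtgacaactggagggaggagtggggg
Capitals mark matches, on either strand, to 7 motifs that were picked with the Ptgs2 sequence in view: the TATA box TATAAA, the GC box GGGCGG, the CRE half-site TGACG, the E-box CACGTG, the C/EBP-type palindrome TTGCGCAA, the AP-1 motif TGANTCA and the NF-kB consensus. The Ptgs2 window held the GC box at −170 to −165, the palindrome at −69 to −62, and the CRE half-site at 14 to 18 (read on the minus strand), which overlaps the E-box at 17 to 22; positions count from 1 at that start, with −1 just before it. Of 32851 RefSeq start windows cut to the same length, 34.7% held the GC box, 19.9% the CRE half-site, 6.79% the E-box and 0.18% the palindrome. None of the 7 motifs was in this internal Ptgs1 window (the upstream end of the gene was not searched), and the TATA box (13.1% of windows), the AP-1 motif (7.46%) and the NF-kB consensus (7.94%) were not in the Ptgs2 window either. Bases outside these windows were not searched for either gene, so the absences hold for these windows only. The Ptgs2 window was 61.4% G and C with 16 CG pairs, and the Ptgs1 window 49.6% with 5. These matches describe letters only and say nothing of what binds there. As the motifs were picked with the Ptgs2 sequence in view, neither the shares of windows nor the contrast with Ptgs1 tests a difference.

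The phospholipase and the E2 synthase Ptges fell, and the other E2 synthase of the 10, Ptges2, rose. Pla2g4a (gene 18783, chromosome 1, 149829618 to 149961290, minus strand), the cytosolic phospholipase A2, had 24.9, 22.7 and 19.8 CPM with RANKL, against 30.3, 28.9 and 31.2 CPM with M-CSF, a log2 fold change of −0.42 ± 0.08 (adjusted p = 5.18e-05). Ptges (gene 64292, chromosome 2, 30889471 to 30931020, minus strand), the microsomal synthase usually induced together with Ptgs2, had 5.19, 5.14 and 5.82 CPM with RANKL, against 10.5, 7.68 and 10.2 CPM with M-CSF. It fell by 0.81 ± 0.14 on the log2 scale (adjusted p = 2.25e-05). Ptges2 (gene 96979, chromosome 2, 32395890 to 32405772, plus strand), the constitutive membrane-associated synthase, went the other way, with 21.6, 22.4 and 18.1 CPM with RANKL, against 10.3, 11.2 and 10.6 CPM with M-CSF (log2 fold change 0.96 ± 0.08, adjusted p = 9.1e-10). In FPKM, Ptges2 was 7.68 ± 1.35 times as high as Ptges with RANKL and 2.32 ± 0.528 times as high with M-CSF (SD, n = 3 each). Hpgds (gene 54486, chromosome 6, 65116829 to 65144981), the hematopoietic prostaglandin D synthase, had 197, 217 and 222 CPM with RANKL, against 292, 310 and 318 CPM with M-CSF, and fell by 0.53 ± 0.05 on the log2 scale (adjusted p = 1.53e-09). The table puts Hpgds on the plus strand and RefSeq on the minus strand.

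In the leukotriene branch the enzyme and its helper parted. Alox5 (gene 11689, chromosome 6, 116410071 to 116461178, minus strand), 5-lipoxygenase, had 33.9, 28.5 and 29.0 CPM with RANKL, against 19.1, 16.0 and 19.3 CPM with M-CSF, and rose by 0.75 ± 0.08 on the log2 scale (adjusted p = 8.11e-08). Alox5ap (gene 11690, chromosome 5, 149265004 to 149288153, plus strand) had 260, 284 and 290 CPM with RANKL, against 394, 421 and 444 CPM with M-CSF, and fell by 0.60 ± 0.05 (adjusted p = 3.51e-10). No RANKL library overlapped an M-CSF library for either gene. The FPKM of Alox5ap was 33.4 ± 4.59 times that of Alox5 with RANKL and 84.7 ± 9.7 times with M-CSF (SD, n = 3 each).

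Of the enzymes that use leukotriene A4, Lta4h rose slightly and Ltc4s fell. Lta4h (gene 16993, chromosome 10, 93453396 to 93484896, plus strand), the hydrolase that makes leukotriene B4, had 91.2, 95.3 and 97.5 CPM with RANKL, against 87.3, 84.5 and 85.7 CPM with M-CSF, a small rise of 0.14 ± 0.04 on the log2 scale (adjusted p = 0.0076). Ltc4s (gene 17001, chromosome 11, 50236461 to 50238532, minus strand), the leukotriene C4 synthase, had 5.47, 5.36 and 4.48 CPM with RANKL, against 6.67, 6.54 and 7.98 CPM with M-CSF. Its log2 fold change was −0.47 ± 0.15 (adjusted p = 0.0114); without M-CSF replicate 3 it was −0.37 (adjusted p = 0.0646) and without RANKL replicate 3 it was −0.38 (adjusted p = 0.0574), so this call rests on each of those libraries. Mast cell and basophil markers, of a cell type known for high Ltc4s and Hpgds, summed to 13.9 to 15.7 CPM with RANKL and 17.5 to 23.8 CPM with M-CSF over the 7 of 10 markers in the table. Of the 6 tested, 4 were lower with RANKL and 0 higher, and their part in these changes was not tested. Neutrophil markers summed to 1563 to 1762 CPM with RANKL and 1260 to 1767 CPM with M-CSF over 10 markers, of which 6 were called higher and 3 lower.

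**Figure D2:**
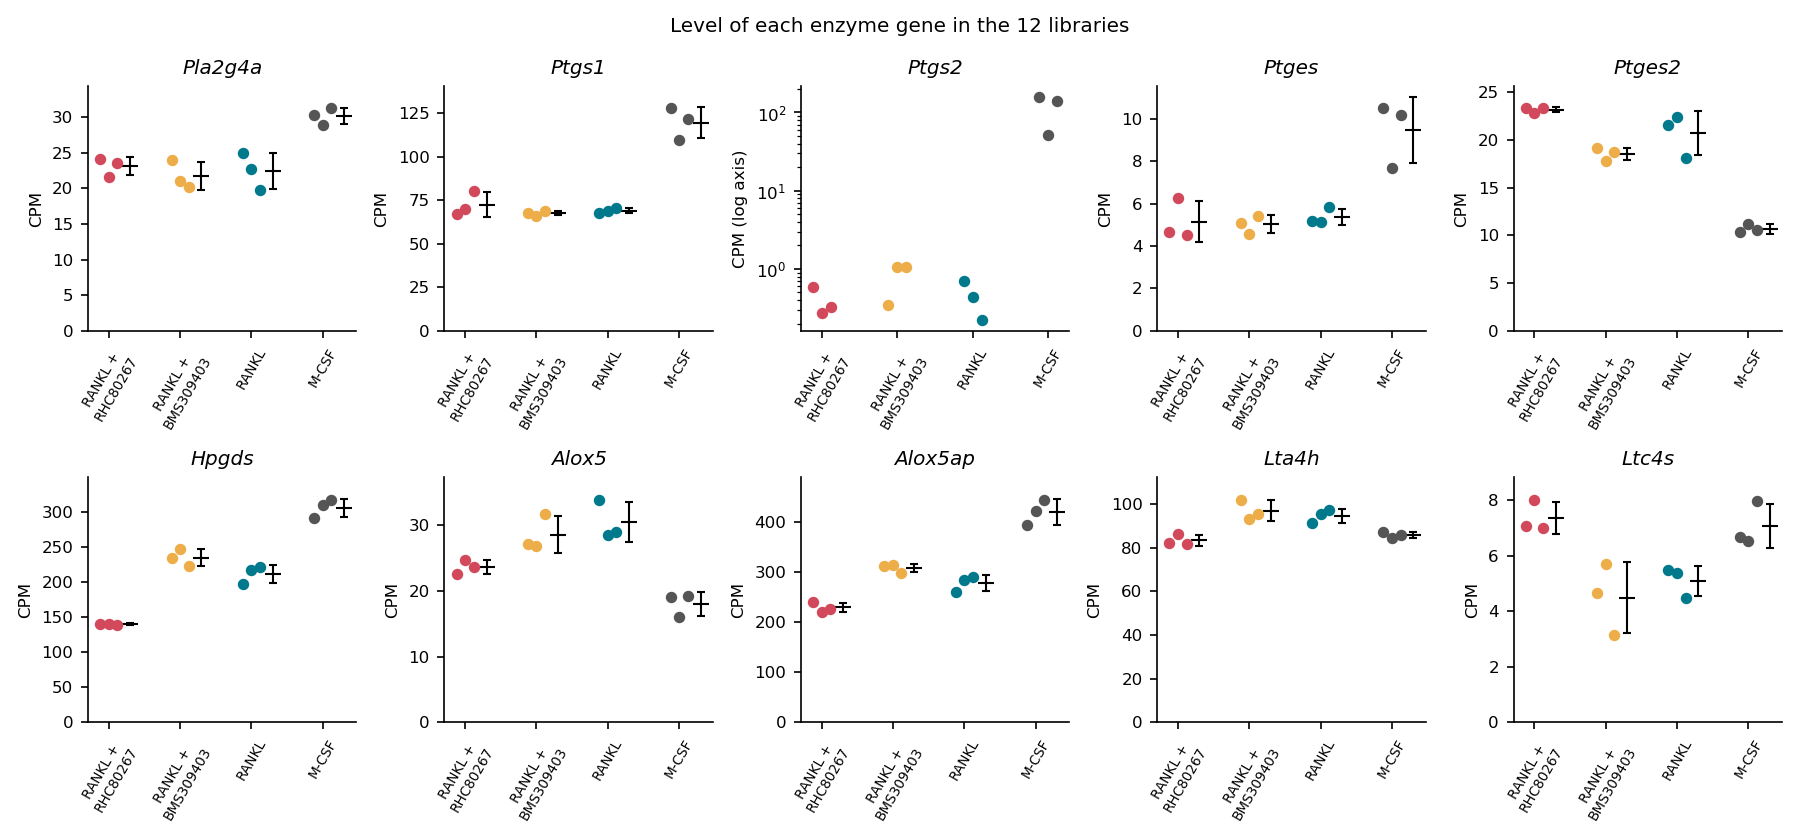
CPM of each of the 10 enzyme genes in all 12 libraries (points) with the mean ± SD of each group beside them (n = 3); the axes start at 0 except for Ptgs2, which has a log axis and no error bar. Ptgs2 stands at 52.2 to 157 CPM with M-CSF and at 0.224 to 1.06 CPM in the 9 libraries with RANKL, and Hpgds is at 139 to 141 CPM in the RHC80267 libraries, below the 3 other groups.

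The comparison of RHC80267 with RANKL asks what the lipase inhibitor changes in cultures that all had RANKL. Diacylglycerol lipase is itself a source of arachidonic acid through its product 2-arachidonoylglycerol. With RHC80267, Ltc4s rose and Hpgds, Alox5, Alox5ap and Lta4h fell. The other 5 were not called, among them both cyclooxygenases and the phospholipase. Called members thus numbered 1 higher and 4 lower of 10, and the median log2 fold change of the 10 was −0.12, against 0.025 over all genes. Over all genes tested 26.9% were called higher and 23.0% lower, so a call by itself does not mark these 10 out.

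Hpgds had 141, 141 and 139 CPM with RHC80267, against 197, 217 and 222 CPM with RANKL, and fell by 0.60 ± 0.05 on the log2 scale (adjusted p = 1.12e-09). The RHC80267 libraries all lie below the lowest RANKL library, and Hpgds was at its lowest of the 4 groups here. Alox5 had 22.6, 24.7 and 23.6 CPM with RHC80267, against 33.9, 28.5 and 29.0 CPM with RANKL (log2 fold change −0.37 ± 0.08, adjusted p = 0.00063). Alox5ap had 240, 221 and 227 CPM with RHC80267, against 260, 284 and 290 CPM with RANKL (−0.28 ± 0.05, adjusted p = 6.21e-05). Both genes of the first leukotriene step were therefore lower, and the ratio of their FPKM was 35.1 ± 3.05 with RHC80267 and 33.4 ± 4.59 with RANKL (SD, n = 3 each), less apart than the spread between libraries. Lta4h had 82.4, 86.4 and 81.8 CPM with RHC80267, against 91.2, 95.3 and 97.5 CPM with RANKL (−0.18 ± 0.04, adjusted p = 0.0015).

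Ltc4s was the exception, with 7.05, 8.01 and 7.0 CPM with RHC80267, against 5.47, 5.36 and 4.48 CPM with RANKL (log2 fold change 0.53 ± 0.15, adjusted p = 0.0062). The groups did not overlap. In FPKM, Lta4h was 2.21 ± 0.137 times Ltc4s with RHC80267 and 3.51 ± 0.557 times with RANKL (SD, n = 3 each). Neutrophil markers, of a cell type rich in Alox5 and Alox5ap, summed to 778.8 to 1132 CPM with RHC80267 and 1563 to 1762 CPM with RANKL, and 8 of 10 were called lower and 0 higher. Mast cell and basophil markers summed to 8.35 to 13.95 CPM with RHC80267 and 13.93 to 15.69 CPM with RANKL, which overlap, with 1 of 6 tested called lower and 0 higher. Macrophage markers were also lower in sum (20570 to 21610 CPM with RHC80267, 25360 to 27030 CPM with RANKL), and 5 of 10 were called lower and 3 higher. All 10 osteoclast markers were called higher (median log2 fold change 0.91), and 4 of 7 dendritic cell markers tested were called lower and 0 higher. The part of these cell types in the changes of the leukotriene genes was not tested.

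For the enzymes that were not called, the 95% interval of the log2 fold change bounds the difference. Ptgs1, with 67.0, 69.8 and 80.6 CPM with RHC80267 and 67.7, 69.2 and 70.6 CPM with RANKL, had an interval of −0.06 to 0.19. Pla2g4a averaged 23.1 ± 1.27 CPM with RHC80267 and 22.5 ± 2.54 CPM with RANKL (SD, n = 3 each), with an interval of −0.13 to 0.20. Ptges averaged 5.15 ± 0.969 CPM with RHC80267 and 5.38 ± 0.38 CPM with RANKL. Its interval, −0.37 to 0.25, was wider than those of Ptgs1 and Pla2g4a, and it rested on fewer counts. Ptges2 had 23.3, 22.8 and 23.3 CPM with RHC80267, against 21.6, 22.4 and 18.1 CPM with RANKL. Its log2 fold change was 0.16 (adjusted p = 0.0644), and it was called at 0.22 without RANKL replicate 2 (adjusted p = 0.0271), while over all 13 alternatives its adjusted p ran from 0.0271 to 0.392. Ptgs2 had 0.592, 0.272 and 0.326 CPM with RHC80267 and 0.71, 0.442 and 0.224 CPM with RANKL, that is 4 to 13 counts a library, and its interval of −3.66 to 3.24 leaves both the size and the sign of a difference undetermined.

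The comparison of BMS309403 with RANKL asks what the FABP4 inhibitor changes. No enzyme of the 10 passed the test: edgeR called 0 higher and 0 lower, beside 3.49% higher and 3.74% lower over all genes tested. At an unadjusted p below 0.05 there were 3 (Hpgds, Alox5ap and Ptges2). DESeq2 called 2 higher (Hpgds and Alox5ap) and limma-voom 0. The shares over all genes at that unadjusted threshold and in those fits are not given here. These counts therefore do not mark the 10 out. The median log2 fold change of the 10 was −0.04, against −0.006 over all genes.

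Hpgds had 235, 248 and 224 CPM with BMS309403, against 197, 217 and 222 CPM with RANKL, and the lowest BMS309403 library lies just above the highest RANKL library. Its log2 fold change was 0.15 ± 0.05 (adjusted p = 0.0516 with edgeR, 0.0223 to 0.337 over 13 alternatives, of which 7 called it). Alox5ap had 312, 313 and 298 CPM with BMS309403, against 260, 284 and 290 CPM with RANKL, with a log2 fold change of 0.15 ± 0.05 (adjusted p = 0.0634, and 0.0259 to 0.369 over 13 alternatives, of which 4 called it). Macrophage markers stood at 28180 to 29770 CPM with BMS309403, above 25360 to 27030 CPM with RANKL, with 4 of 10 called higher and 0 lower, and their part in these values was not tested. Ptges2 had 19.1, 17.8 and 18.7 CPM with BMS309403, against 21.6, 22.4 and 18.1 CPM with RANKL (log2 fold change −0.16 ± 0.07, adjusted p = 0.2138).

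The other 7 enzymes overlapped between the groups or lay close together. Ptgs1 had 67.8, 66.3 and 68.8 CPM with BMS309403 and 67.7, 69.2 and 70.6 CPM with RANKL, and the 95% interval of its log2 fold change was −0.16 to 0.09. Alox5 had 27.1, 26.9 and 31.8 CPM with BMS309403 and 33.9, 28.5 and 29.0 CPM with RANKL, with an interval of −0.26 to 0.07. Lta4h averaged 97.0 ± 4.71 CPM with BMS309403 and 94.7 ± 3.2 CPM with RANKL (SD, n = 3 each). Pla2g4a averaged 21.7 ± 1.97 CPM with BMS309403 and 22.5 ± 2.54 CPM with RANKL, and Ptges 5.04 ± 0.433 CPM with BMS309403 and 5.38 ± 0.38 CPM with RANKL. Ltc4s had 4.65, 5.69 and 3.13 CPM with BMS309403 and 5.47, 5.36 and 4.48 CPM with RANKL, with an interval of −0.53 to 0.16, and BMS309403 replicate 3 alone gave the difference its sign. Ptgs2 had 0.341, 1.06 and 1.06 CPM with BMS309403 and 0.71, 0.442 and 0.224 CPM with RANKL, on 6 to 19 counts a library with BMS309403 and 4 to 13 with RANKL, and the interval ran from −2.09 to 3.75.

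Both inhibitor comparisons use the same RANKL libraries, so the inhibitors were set against each other directly. With RHC80267, 2 of the 10 enzymes were higher (Ltc4s and Ptges2) and 4 lower (Hpgds, Alox5ap, Alox5 and Lta4h) than with BMS309403, beside 30.1% higher and 25.5% lower over all genes tested. The median log2 fold change of the 10 was −0.09, against 0.027 over all genes. Among the called enzymes the difference was widest for Hpgds, with 141, 141 and 139 CPM with RHC80267, against 235, 248 and 224 CPM with BMS309403 (−0.75 ± 0.05, adjusted p = 1.76e-11), and for Ltc4s, with 7.05, 8.01 and 7.0 CPM with RHC80267, against 4.65, 5.69 and 3.13 CPM with BMS309403 (0.71 ± 0.15, adjusted p = 0.000535). Alox5ap differed by −0.42 ± 0.05 (adjusted p = 1.57e-07) and Alox5 by −0.28 ± 0.08 (adjusted p = 0.0065). Ptges2, not called against RANKL with either inhibitor, differed between them by 0.32 ± 0.07 (adjusted p = 0.000655), with 23.3, 22.8 and 23.3 CPM with RHC80267 and 19.1, 17.8 and 18.7 CPM with BMS309403. Lta4h differed by −0.22 ± 0.04 (adjusted p = 0.000236), and Ptgs1, Pla2g4a, Ptges and Ptgs2 were not called. In the authors' deposited table the 10 enzymes had 3 higher and 7 lower for RANKL against M-CSF, 1 and 4 for RHC80267 against RANKL, 0 and 0 for BMS309403 against RANKL, and 2 and 4 for RHC80267 against BMS309403 at a q-value below 0.05, the same numbers as above. Those q-values come from the same libraries, so the match is not independent, and the authors' shares over all genes are not given here.

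**Figure D3:**
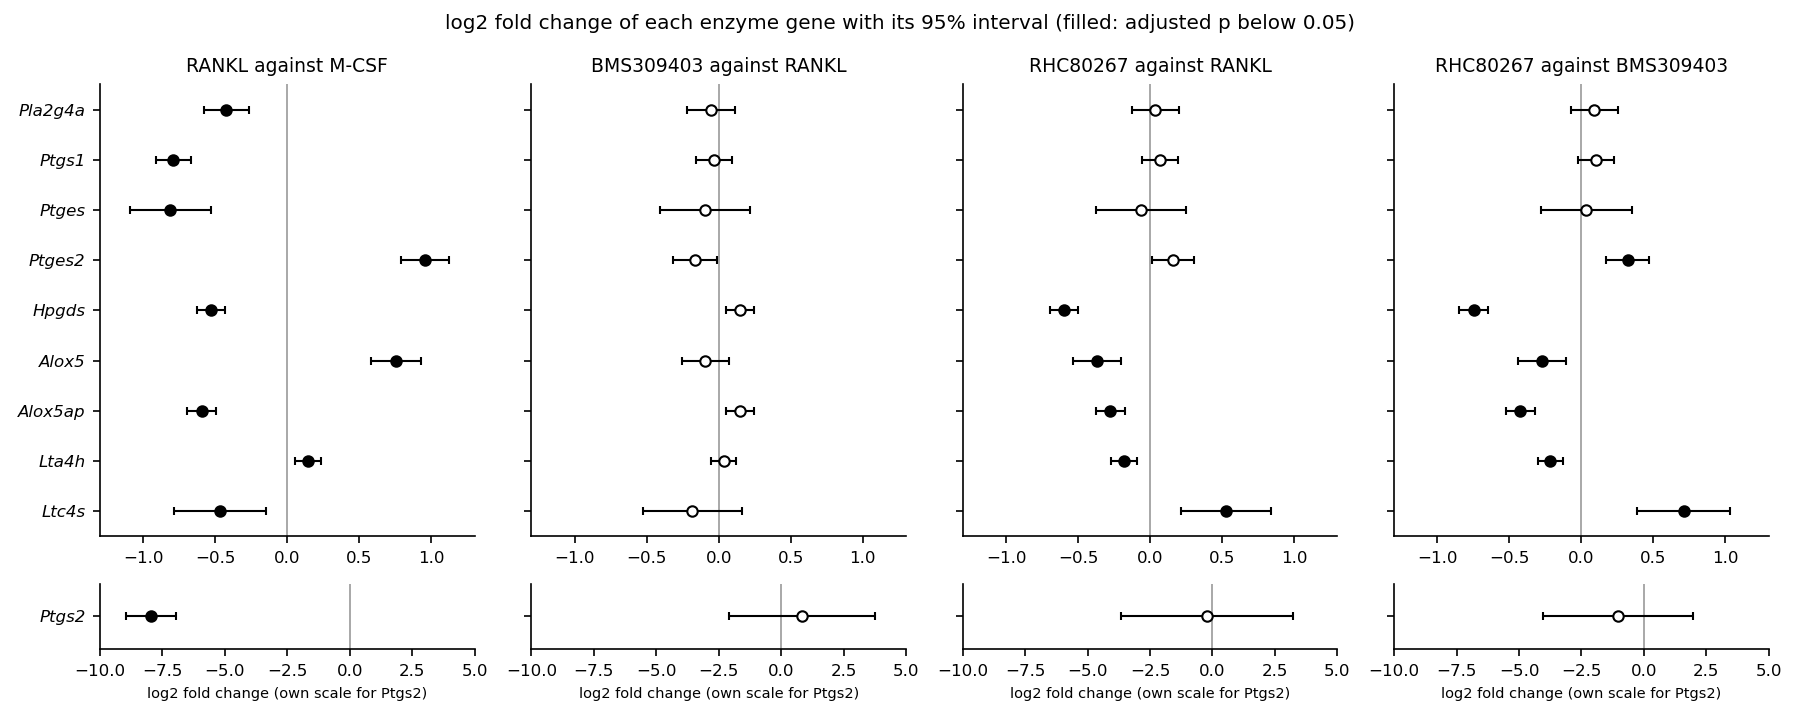
log2 fold change of each enzyme gene with its 95% interval (bars) in the 4 comparisons; filled points passed an adjusted p of 0.05, and Ptgs2 has its own, wider scale in the lower row. All 10 points are filled for RANKL against M-CSF and none for BMS309403 against RANKL.

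Other genes of the pathway were followed with 5 lists of 61 genes, of which 59 were in the table and 42 were tested. With RANKL, 13 of the 42 were higher and 18 lower than with M-CSF, beside 31.4% higher and 29.8% lower over all genes. The higher share was thus close to that of all genes and the lower share was above it. Their median log2 fold change was −0.11, against 0.003 over all genes, and no test of the lists was made. Genes of prostaglandin breakdown moved both ways. Hpgd, the dehydrogenase that inactivates prostaglandins, had 48.2 ± 0.73 CPM with RANKL and 167.4 ± 5.57 CPM with M-CSF (log2 fold change −1.80 ± 0.07, adjusted p = 1.26e-15), and Ptgr1, a reductase of the next step, fell by 0.74, while Ptgr2, another such reductase, rose by 0.54, with 89.8 ± 3.49 CPM with RANKL and 61.9 ± 3.32 CPM with M-CSF. Among other prostanoid synthases and breakdown genes, 2 of 8 rose and 4 fell. Akr1b3, a reductase with prostaglandin F synthase activity, fell, with 140.5 ± 2.87 CPM with RANKL and 262.5 ± 29.2 CPM with M-CSF (−0.90 ± 0.06, adjusted p = 7.08e-12).

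Of 9 receptors tested, 5 fell and 1 rose with RANKL (Ltb4r1, a leukotriene B4 receptor, by 0.335, adjusted p = 0.0182). Over all genes the shares were the same 29.8% lower and 31.4% higher, and no test of the list was made. Ptger4, a receptor for prostaglandin E2, had 12.4, 13.0 and 12.2 CPM with RANKL, against 23.5, 18.4 and 20.4 CPM with M-CSF (−0.73 ± 0.09, adjusted p = 2.35e-07); Ptger2, another E2 receptor, fell by 0.64, the prostacyclin receptor gene Ptgir by 0.42, and Fpr2, which binds the arachidonate product lipoxin A4 among other ligands, by 1.59. All 3 transporters tested fell: Abcc4, the prostaglandin exporter, by 0.36, Abcc1, the leukotriene C4 exporter, by 0.27, and Slco3a1 by 0.55. Of the other lipoxygenases and leukotriene processing genes, 6 of 9 were higher and 2 lower. Ephx2, the soluble epoxide hydrolase, is counted on that list though it is not a leukotriene enzyme. It had 13.6, 9.66 and 10.9 CPM with RANKL, against 1 count in all 3 M-CSF libraries together, a ratio of 610 (95% counting interval 109 to 24100). Ggt5, which turns leukotriene C4 into D4, fell by 1.87 and Dpep2, which turns D4 into E4, rose by 0.47, as did Mgst2, which also has leukotriene C4 synthase activity, by 0.59. Among phospholipases A2 and remodelling enzymes, 4 of 13 rose and 4 fell. Pla2g15, the lysosomal phospholipase A2, fell by 0.68, Acsl4, which activates arachidonic acid for storage in membranes, fell by 0.33, and Pla2g7, the phospholipase that breaks down platelet-activating factor, rose by 0.33. Pla2g2d, a secreted phospholipase, had 52 counts with RANKL and 0 with M-CSF, at least 17.1-fold higher when M-CSF is set to 3 counts over the group, which covers counting error only.

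With RHC80267 the same 42 genes had 14 higher and 11 lower than with RANKL (median 0.06), beside 26.9% higher and 23.0% lower over all genes. Of the 9 receptors, 5 were lower and 1 higher (Ptger2, by 0.30, adjusted p = 0.0080), with no test of the list. Cysltr1, the receptor for cysteinyl leukotrienes, had 26.4, 28.0 and 28.4 CPM with RHC80267, against 44.7, 43.6 and 43.0 CPM with RANKL (−0.66 ± 0.06, adjusted p = 1.08e-08), Ltb4r1, the leukotriene B4 receptor, fell by 0.64, Ptger4 by 0.43 and Ptgir by 0.35. Lpcat2, which makes platelet-activating factor, had 80.5, 74.2 and 76.7 CPM with RHC80267, against 143, 149 and 155 CPM with RANKL (−0.95 ± 0.05, adjusted p = 5.39e-13). Acsl4 fell by 0.37, while Pla2g15 rose by 0.50 and Pla2g7 by 0.40. Of the other prostanoid synthases and breakdown genes, 5 of 8 were higher and 0 lower, among them Ptgr1 (0.39), Hpgd (0.30), Cbr1 (0.28) and Ptges3 (0.19). In leukotriene processing Dpep2 fell by 0.63, Ggt5 rose by 0.69 and Cyp4f18, a leukotriene B4 hydroxylase, rose by 0.51. The epoxide hydrolase gene Ephx2, counted on the same list, rose by 0.93. It had 20.4, 25.0 and 19.4 CPM with RHC80267, against 13.6, 9.66 and 10.9 CPM with RANKL. Alox12, platelet-type 12-lipoxygenase, had 0.754, 0.49 and 0.597 CPM with RHC80267, against 3.66, 3.04 and 2.18 CPM with RANKL (−2.26 ± 0.34, adjusted p = 9.96e-06), while 7 of 8 megakaryocyte and platelet markers were called lower and 1 higher (Itgb3, which is also an osteoclast marker) in the same comparison. The sum of these 8 markers ran the other way, at 291.3 to 344.3 CPM with RHC80267 and 155.6 to 188.9 CPM with RANKL. As the other 7 were called lower, Itgb3 alone carried that rise. The part of these markers in the fall of Alox12 was not tested.

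With BMS309403, 1 of the 42 genes was higher and 1 lower than with RANKL (median −0.01), beside 3.49% higher and 3.74% lower over all genes. Pla2g7 had 680, 698 and 756 CPM with BMS309403, against 658, 635 and 603 CPM with RANKL (0.17 ± 0.05, adjusted p = 0.034). Ephx2 had 8.74, 7.25 and 9.18 CPM with BMS309403, against 13.6, 9.66 and 10.9 CPM with RANKL (−0.44 ± 0.13, adjusted p = 0.0455). Leaving out replicate 2 or replicate 3 of either group ended the call of Pla2g7. The call of Ephx2 was ended by limma-voom, by a term for the replicate number, or by leaving out any library but RANKL replicate 2. Between the inhibitors, 14 of the 42 were higher and 12 lower with RHC80267 than with BMS309403, beside 30.1% and 25.5% over all genes.

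**Figure D4:**
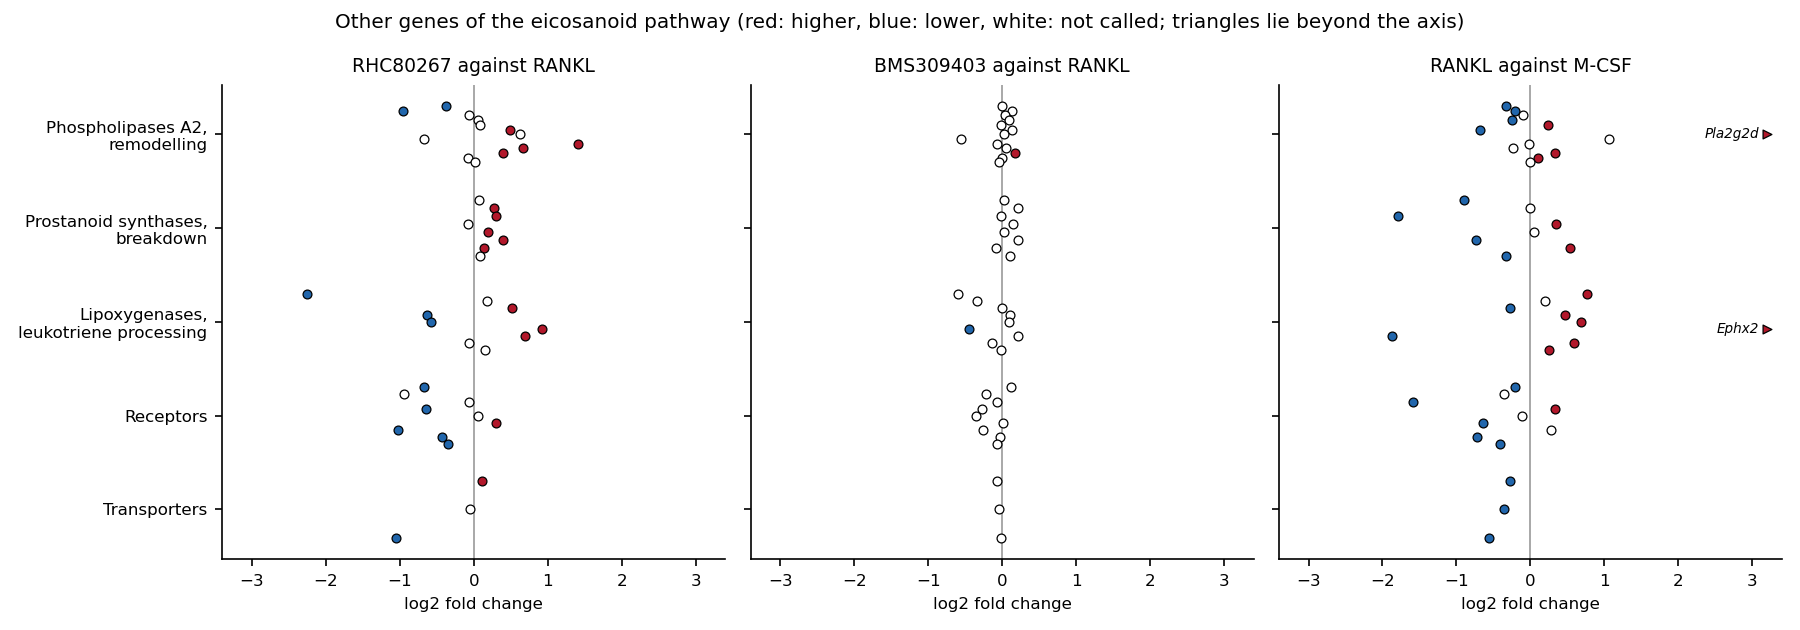
log2 fold change of the 42 other pathway genes tested, 1 point per gene, by list (rows) and comparison (panels); red is called higher, blue called lower and white not called, and triangles mark 2 genes beyond the axis. The panel of BMS309403 against RANKL has 1 red and 1 blue point, and that of RANKL against M-CSF has 13 red and 18 blue.

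For a view of which genes ran along with the enzymes, Pearson's r of log2(CPM + 1) over the 12 libraries was ranked among the 10162 genes whose mean reached 5 CPM in a group; the libraries share their groups, so r mostly follows the group means. Closest to Ptgs2 were Csf3 (r = 0.996), Csf1r (0.993) and Cxcl1 (0.992). Csf3, which encodes the cytokine G-CSF, had no counts in any library with RANKL and averaged 7.94 CPM with M-CSF. Closest to Alox5 were Nfam1 (0.967), Cog3 (0.963) and Clic4 (0.961).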

How the data were processed

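RNA-seq values of 12 libraries were taken from the deposited table. Its read counts, named so per the file headers, are not whole numbers in 9.49% to 9.89% of values, so the authors' counts were taken to be RSEM expected counts and were rounded. The FPKM values were deposited by the authors and used as they stand for levels between genes. The authors' log2 fold changes and q-values (adjusted p-values) come from the deposited table. The tools listed, per the submitters' processing notes, are Bowtie2, RSEM 1.3.1 and DESeq2 1.4.5; no build, tool order or strand setting is stated in the labels. Without strand, reads of Ptgs1, Alox5ap and Ltc4s cannot be told apart from those of antisense or overlapping genes that GENCODE places on their exons. Positions in the table match GRCm38: 8 of the 10 enzymes have the same start and end in RefSeq GRCm38.p6, and Ptges2 and Hpgds differ. Another 24 per-sample columns were not used.

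Genes were filtered with filterByExpr by group (minimum count 10; 4402 removed, 12168 tested) and scaled by TMM (factors 0.978 to 1.037). A quasi-likelihood model of all libraries was fitted in edgeR 4.0.16 (R 4.3.3), with a term for group, leaving 8 residual degrees of freedom, and comparisons were contrasts of it. All p-values are 2-sided, adjusted by Benjamini-Hochberg over all genes tested, and called below 0.05. SE is the log2 fold change over the root of its F statistic, and intervals are 95% intervals. CPM uses the TMM-adjusted library size; values are mean ± SD over 3 libraries. The fit was tested on simulated data. The growth protocol in the labels describes 4 days of RANKL and the treatment protocol 2 days; the second is given for these libraries.

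The members, the pathway, marker and context lists and the tests were chosen with earlier results of these data known. Besides the 10 enzymes, the text names genes that were among the 4 called genes with the smallest p of their list in at least 1 comparison, and the 3 genes closest to Ptgs2 and to Alox5; those closest to Ptgs1 are not reported here. Of 12 glucocorticoid-responsive genes, 6 were higher and 2 lower for RHC80267 against RANKL, 2 and 7 for RANKL against M-CSF, and 0 and 0 for BMS309403 against RANKL. Of the inflammatory list, 2 were higher and 5 lower of 14 for RHC80267 against RANKL, and 0 and 0 for BMS309403 against RANKL. Dendritic cell, stromal and lymphocyte markers summed to at most 72.3, 66.8 and 14.6 CPM in any library. Stromal markers summed to 24.11 to 66.83 CPM with RHC80267 and 16.79 to 26.51 CPM with RANKL. Of the 6 tested, 3 were called higher and 1 lower. Lymphocyte markers summed to 8.74 to 10.52 CPM with RHC80267 and 10.49 to 11.47 CPM with RANKL. Of the 5 tested, 1 was called higher and 4 lower. The part of these cell types was not tested. The test was repeated with RLE factors, DESeq2 1.42.0, a stricter filter, no filter, only the groups compared, limma-voom (limma 3.58.1), a term for the replicate number and each library left out in turn.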

Additional observations from a re-analysis of the deposited data

How the results depend on the processing

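Of 519 log2 fold changes of the 10 enzymes under the alternatives, 492 kept their direction and their side of the threshold, 15 became called, 2 lost their call and 10 changed sign, none of the 10 a called value; the causes were not tested. For BMS309403 against RANKL, enzymes called higher numbered 2 with DESeq2 and with no filter. They numbered 1 with RLE factors, the stricter filter, only the groups compared and the replicate block, and 0 in the edgeR fit reported. With each library left out in turn, 0 to 2 enzymes were called higher and 0 to 1 lower. For DESeq2, no filter, RLE factors, the stricter filter and only the groups compared, the shares over all genes are not given here. Those counts therefore have no background beside them. Over all genes in that comparison, 425 were higher and 455 lower, and 153 and 111 without RANKL replicate 1, 174 and 147 without BMS309403 replicate 2; the ranges with each library left out in turn were 153 to 474 higher and 111 to 538 lower. For RHC80267 against RANKL, enzymes called higher numbered 1 to 2 with each left out.

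Signs changed in leaving-one-out ranges of values that were not called: for BMS309403 against RANKL, Ltc4s (−0.39 to 0.03) and Pla2g4a (−0.13 to 0.03, and 0.01 without BMS309403 replicate 3); for RHC80267 against RANKL, Ptgs1 (−0.02 to 0.12), Ptgs2 (−0.61 to 0.25), Ptges (−0.23 to 0.02, and 0.00 without RHC80267 replicate 1) and Pla2g4a (−0.04 to 0.12); for RHC80267 against BMS309403, Ptges (−0.13 to 0.12, and −0.05 without BMS309403 replicate 2). With only the groups compared, Ptgs2 was called for RHC80267 against BMS309403 (−1.06, adjusted p = 0.0424 with edgeR), on 5 to 19 counts a library. Libraries that share a replicate number did not deviate together (r −0.09 to 0.10), so the numbers were not taken to pair them; the replicate block gave 3785 higher and 3599 lower genes for RANKL against M-CSF, 437 and 422 for BMS309403 against RANKL, 3256 and 2788 for RHC80267 against RANKL and 3642 and 3085 for RHC80267 against BMS309403, and changed the call of 1 enzyme, Hpgds for BMS309403 against RANKL (0.15, adjusted p = 0.0419 with edgeR), while the call of Ephx2 there was lost. In the cultures with RANKL, Ptgs2 rests on 4 to 19 counts a library.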
